A study of Mus musculus with 4 samples.

Results

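The 6 genes described here are those of the digestive products of gastric chief cells together with the transcription factor Bhlha15. They are Pgc, Pga5, Cblif, Chia1 and Lipf, which encode secreted proteins, and Bhlha15. They were taken by gene symbol from the probe sets annotated to exactly 1 gene, 6 of the 22180 genes so measured, and each had 1 probe set. Values are log2 expression after robust multi-array averaging, so a difference of 1 is a 2-fold difference. A gene was kept for counts over all genes when its mean over the 4 arrays reached 5.03, the median of all genes. That kept 11090 genes and 5 of the 6 members, all but Lipf.

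Microarrays measured expression in gastric corpus from mice aged 8 to 10 weeks, after 14 days of daily intraperitoneal injections. The 4 groups were AMPK KO mice given metformin at 300 mg/kg, AMPK KO mice given saline vehicle, WT mice given metformin at 300 mg/kg and WT mice given saline vehicle, with 1 array in each. AMPK KO mice carried Atp4b-cre and floxed alleles of Prkaa1 and Prkaa2, which encode the catalytic subunits of AMP-activated protein kinase, on a mixed background that included FVB, whereas WT mice were C57BL/6. Genotype and strain background cannot be told apart. Atp4b-cre acts in parietal cells, so chief cells of the KO mice are not its intended target, and per the submitters parietal cells of these mice are reduced in number and mature poorly. The number of mice behind an array was not given in the sources used here.

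Chief cells sit at the base of the corpus glands and store inactive enzyme precursors, the zymogens, in large apical granules. They arise from mucous neck cells, and the basic helix-loop-helix factor Bhlha15, also called Mist1, builds their secretory apparatus late in maturation, downstream of Xbp1. Pgc and Pga5 encode pepsinogens, aspartic protease precursors that acid activates. Cblif encodes gastric intrinsic factor, which carries vitamin B12 and is a chief cell product in mice but a parietal cell product in humans. Chia1 encodes acidic mammalian chitinase, and Lipf encodes gastric lipase, which in rodents comes largely from serous glands of the tongue.

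Bhlha15 binds E-boxes, sites of the form CANNTG, so the 250 bases before the start of 4 of these genes are shown, with E-boxes and TATAAA in capitals. The sequences are RefSeq's for GRCm38.p6, all on the plus strand, at chr5:144190036-144190285 (Bhlha15), chr17:47726592-47726841 (Pgc), chr19:11747309-11747558 (Cblif) and chr3:106113132-106113381 (Chia1). RefSeq promoter entries matched 5 of the 6 genes, with Pga5 the other one.
Bhlha15: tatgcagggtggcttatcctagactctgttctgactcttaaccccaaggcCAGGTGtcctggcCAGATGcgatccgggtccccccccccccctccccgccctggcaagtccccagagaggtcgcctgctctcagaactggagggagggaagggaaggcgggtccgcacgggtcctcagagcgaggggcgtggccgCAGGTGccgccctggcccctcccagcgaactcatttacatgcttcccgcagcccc
Pgc: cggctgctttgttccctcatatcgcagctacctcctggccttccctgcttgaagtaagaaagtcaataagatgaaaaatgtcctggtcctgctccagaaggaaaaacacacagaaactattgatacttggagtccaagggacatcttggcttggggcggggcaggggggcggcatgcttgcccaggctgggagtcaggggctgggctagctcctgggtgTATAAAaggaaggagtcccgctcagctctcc
Cblif: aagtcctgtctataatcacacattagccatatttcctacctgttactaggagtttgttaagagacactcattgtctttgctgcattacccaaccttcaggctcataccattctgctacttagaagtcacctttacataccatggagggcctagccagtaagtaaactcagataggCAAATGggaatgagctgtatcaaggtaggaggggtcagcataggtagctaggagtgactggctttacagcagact
Chia1: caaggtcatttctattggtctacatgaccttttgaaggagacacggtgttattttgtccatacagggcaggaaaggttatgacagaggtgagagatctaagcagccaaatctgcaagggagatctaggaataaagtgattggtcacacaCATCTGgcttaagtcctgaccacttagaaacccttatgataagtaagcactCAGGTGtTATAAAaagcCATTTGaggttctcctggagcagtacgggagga
Both strands were searched, and the E-box pattern reads the same on each. The Bhlha15 window held 3 E-boxes, the Chia1 window 3, the Cblif window 1, the Pgc window 0, and the Lipf window, not printed because its probe set was under the filter, held 4, where 66.2% of 32851 such windows held at least 1. TATAAA began at position -31 from the start of Pgc and at -43 from that of Chia1, overlapping no E-box, and 12.4% of windows held it on either strand. A match is a description of letters, not of a bound site.

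The tissue carried the markers of corpus glands on every array. Atp4a and Atp4b, subunits of the parietal proton pump, lay between 12.80 and 13.44. Of the pancreatic acinar list, 16 of 19 genes were measured and 9 were under 5.03 on every array, among them Cpa1, Prss2, Cela3b and the acinar factor Ptf1a, while 6 passed the filter. These were the colipase gene Clps (13.59 to 13.67), Pnliprp1 (8.79 to 9.23), Cel (6.05 to 7.89), Cela1 (6.58 to 7.42), Rbpjl (5.78 to 6.22) and Sycn (5.16 to 6.67), and Cel (-1.84) and Sycn (-1.21) were past 2-fold lower in KO under vehicle. Which cells carried these RNAs was not tested. Pdx1, a factor of antrum and duodenum, was under 5.03 on all arrays, and the antral hormone gene Gast lay between 5.40 and 5.88. Genes known from intestinal absorptive cells were measured too, with Fabp2 at 7.70 on KO metformin, 7.98 on KO vehicle, 7.58 on WT metformin and 6.25 on WT vehicle, Apoa1 between 9.93 and 10.77 and Apoa4 between 8.62 and 9.25. The AMPK genes themselves were lower in KO than in WT, Prkaa1 by a difference of -1.28 under vehicle and -0.24 under metformin and Prkaa2 by -1.71 and -0.50. Where their probes lie relative to the floxed exons was not given in the sources used here. In whole tissue, fewer cells of a type and less RNA per cell cannot be told apart.

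Pgc varied the least of the 6 genes as deposited. It measured 13.99 on the KO metformin array, 14.02 on the KO vehicle array, 13.99 on the WT metformin array and 14.00 on the WT vehicle array. The 4 values span 0.03, and 99.9% of the 11090 genes had a larger range. Pgc was also the highest value on every array, and few genes at such levels differed much. Among the 40 genes with a mean of 12 or more, the median absolute difference between KO and WT under vehicle was 0.21, against 0.56 among the 247 genes between 10 and 12. For the KO metformin array against the WT metformin array the same medians were 0.06 and 0.18. Whether a ceiling of the array narrows these values was not tested. The KO against WT difference of Pgc under vehicle, 0.02 as deposited, moved with scaling. It was -0.13 after centring the arrays on their medians and 0.41 relative to 11 pan-epithelial genes. Values relative to these genes centre each array on their median level, which was 8.88 on KO vehicle and 9.27 on WT vehicle. The median of their own differences there was smaller in size, -0.205. Those differences ran from -1.49 (Cldn18) to 0.49 (Cldn7, under the filter), so the reference is itself uneven.

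Pga5 gave the second pepsinogen at a level away from that end of the scale. It measured 9.21 on the KO metformin array, 8.86 on the KO vehicle array, 8.97 on the WT metformin array and 8.80 on the WT vehicle array. Both metformin arrays were above both vehicle arrays. The metformin difference was 0.34 in KO (1.27-fold) and 0.17 in WT (1.13-fold), and these responses share no array. Relative to the pan-epithelial genes the KO value was -0.02. Their median level rose from 8.88 on KO vehicle to 9.24 on KO metformin. The median of their own differences was only 0.008, so the loss of the Pga5 difference rests on that reference. In KO 27.4% of all genes and in WT 19.5% lay at least as high, so Pga5 was well within the spread of other genes.

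**Figure D1:**
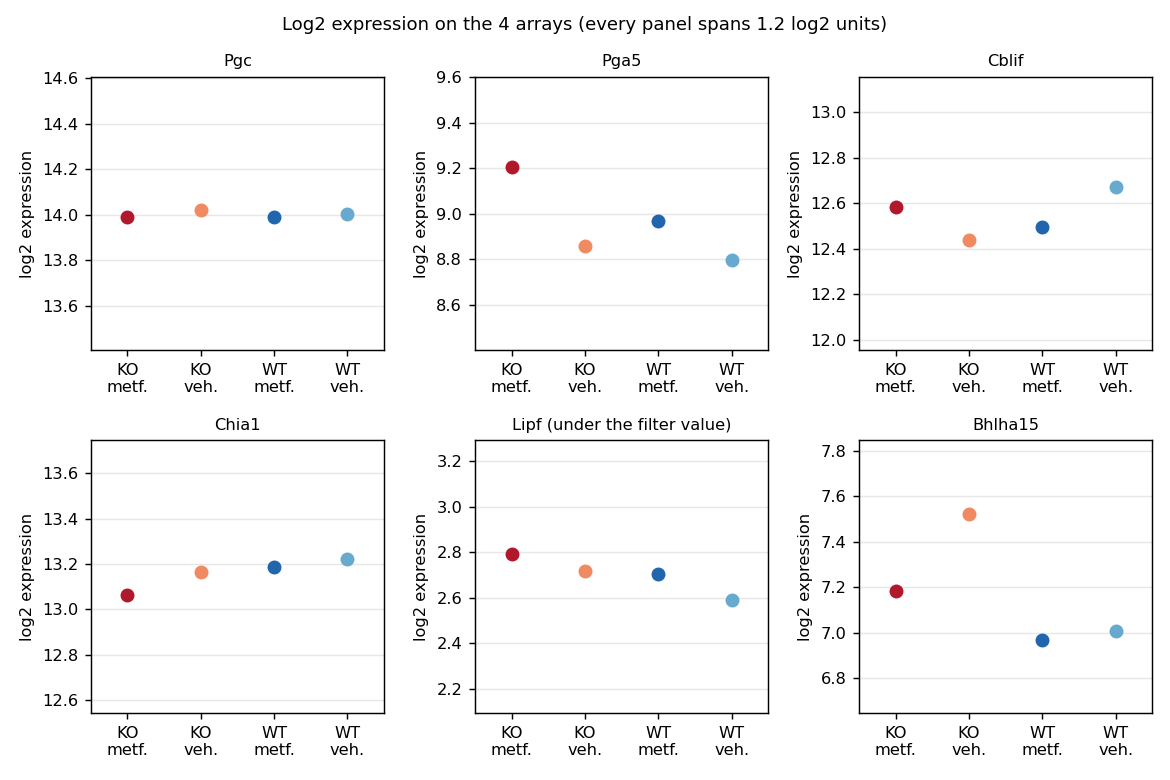
Log2 expression (y axis) of each of the 6 genes on the 4 arrays (x axis), 1 point per array, with every panel spanning 1.2 log2 units so that panels compare by eye. Pgc spans 0.03 and Bhlha15, the widest, 0.56, with its highest point on the AMPK KO vehicle array.

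Cblif measured 12.58 on the KO metformin array, 12.44 on the KO vehicle array, 12.50 on the WT metformin array and 12.67 on the WT vehicle array. It was lowest on KO vehicle and highest on WT vehicle, a difference of -0.23, where the median of all genes was -0.22, and relative to pan-epithelial genes the difference was 0.16. Of the other genes of vitamin B12 transport, 8 were measured, 6 of them past the filter, and 1 was past 2-fold in this comparison. Of all genes, 10.4% were. That count does not set the list apart. The gene was Mmachc, which processes the vitamin inside cells (-1.17). Mmut, the B12-dependent mutase, differed by -0.87, and the intestinal receptor genes Amn (0.75) and Cubn (0.32) were the highest. The mean of Amn was under the filter value, and Cubn was under 5.03 on every array.

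Chia1 measured 13.06 on the KO metformin array, 13.17 on the KO vehicle array, 13.19 on the WT metformin array and 13.22 on the WT vehicle array. Both KO arrays were below both WT arrays, by -0.12 under metformin and -0.06 under vehicle, though the vehicle difference was 0.34 relative to pan-epithelial genes. Its relative Chil4, a chitinase-like protein without enzyme activity, lay above the filter value on the KO arrays only. Chil4 measured 7.91 on the KO metformin array, 8.07 on the KO vehicle array, 4.83 on the WT metformin array and 4.0 on the WT vehicle array. The WT values lie under 5.03, so no fold is read from them. Chil3, the near copy of Chil4, was under 5.03 on all arrays, and probes of such close copies can share signal.

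Lipf measured 2.79 on the KO metformin array, 2.72 on the KO vehicle array, 2.71 on the WT metformin array and 2.59 on the WT vehicle array. All 4 are far below 5.03, so these values are not read as a level or as a difference. Its relative Lipa, the lysosomal acid lipase, was measured well above that value and is described with the related enzymes further on.

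Bhlha15 had the widest range of the 6 genes, 0.56, and 47.0% of the 11090 genes had a larger range. It measured 7.18 on the KO metformin array, 7.52 on the KO vehicle array, 6.97 on the WT metformin array and 7.01 on the WT vehicle array. Both KO arrays were above both WT arrays, and the WT pair differed by -0.04. Under vehicle the KO value was 0.51 higher than WT (1.43-fold), which is 0.73 above the median of all genes. There 9.23% of genes were at least as high, and 37.9% lay at least as far from 0 in either direction. Under metformin the genotype difference was 0.21, with 24.2% of genes at least as high and 44.0% at least as far from 0. The metformin difference in KO was -0.34, with 11.5% of genes at least as low and 39.4% at least as far from 0. The vehicle comparison and the KO response both use the KO vehicle array and are therefore 1 finding seen from 2 sides. The size of the vehicle difference depended on scaling, from 0.36 with each array centred on its median to 0.74 after cyclic loess and 0.91 relative to the pan-epithelial genes.

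**Figure D2:**
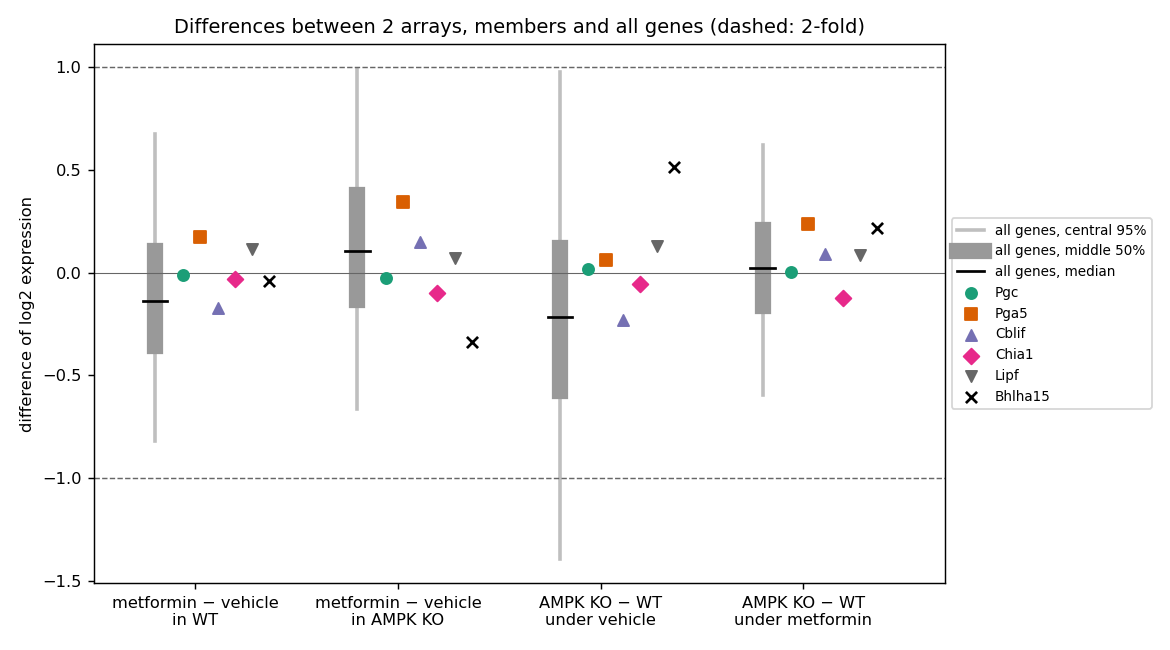
Differences of log2 expression (y axis) between 2 arrays for the 4 comparisons (x axis), with the 6 genes as symbols and all 11090 genes as grey bars (central 95% and middle 50%) with a black median line. No member reaches the dashed 2-fold lines, and the one farthest from 0 is Bhlha15 in AMPK KO against WT under vehicle (0.51).

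Over the members past the filter, 0 of 5 differed by 2-fold in any comparison of 2 arrays. The shares of all genes past 2-fold were 1.7% for metformin against vehicle in WT, 3.06% for the same in KO, 10.4% for KO against WT under vehicle and 0.92% for KO against WT under metformin. At these shares few or no calls among 5 genes are usual, so the count of 0 does not set them apart. At 1.5-fold (0.58 on the log2 scale) the members' count was also 0 of 5 in each comparison as deposited, beside 12.6%, 16.2%, 31.9% and 5.78% of all genes in the same order. Bhlha15 passed 1.5-fold under other scalings in KO against WT under vehicle, as given above. With metformin in KO it did so only relative to pan-epithelial genes (-0.70). The median level of those genes rose by more than the median of their own differences (0.008), so that pass rests on the reference used. The median difference of these 5 was -0.03 (metformin in WT), -0.03 (metformin in KO), 0.02 (KO against WT, vehicle) and 0.09 (KO against WT, metformin), beside -0.14, 0.11, -0.22 and 0.02 over all genes. The difference of the metformin responses, KO minus WT, ranged over the 5 genes from -0.30 (Bhlha15) to 0.32 (Cblif), where 14.8% of all genes were past 1 in size.

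Effects averaged over both treatments or both genotypes were tested with limma, with genotype and treatment as additive terms and Benjamini-Hochberg adjustment over all 11090 genes. The spread comes from 1 residual degree of freedom per gene, shared across genes, and any true interaction of genotype and treatment adds to it. For genotype, 0.0451% of genes (5) passed an adjusted p of 0.05, and 0 of the 5 members did. Bhlha15 averaged 7.35 in KO and 6.99 in WT, a difference of 0.36 ± 0.30 (SE, 2 arrays each, limma unadjusted p = 0.256, adjusted p = 0.9995), with a 95% interval of -0.32 to 1.04. Pgc averaged 14.01 in KO and 14.00 in WT, with an interval for the difference of -0.66 to 0.68. The intervals of Pga5 (-0.53 to 0.82), Cblif (-0.75 to 0.61) and Chia1 (-0.76 to 0.58) likewise stop short of 2-fold either way, while that of Bhlha15 does not on its upper side.

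For metformin, 0% of genes passed the adjusted p in limma, and 32 (0.289%) had an unadjusted p under 0.05, none of them a member. The member with the largest average difference was Pga5, at 9.09 with metformin and 8.83 with vehicle, a difference of 0.26 ± 0.30 (SE, 2 arrays each, limma unadjusted p = 0.407, adjusted p = 1.0) and an interval of -0.42 to 0.93. The intervals of the other 4 ran from -0.87 (Bhlha15) to 0.67 (Cblif). An interval that includes 0 does not show that the groups are alike.

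Genes known to act with Bhlha15 were set beside it. Of 8 genes for its targets and for granule maturation, 6 passed the filter and 0 of these were past 2-fold in any comparison of 2 arrays, where 1.7%, 3.06%, 10.4% and 0.92% of all genes were, so the count does not set them apart. Their median differences were -0.08 (metformin in WT), -0.17 (metformin in KO), 0.03 (KO against WT, vehicle) and -0.25 (KO against WT, metformin). Rab26 and Rab3d, small GTPases of secretory granules and direct targets of Bhlha15, differed between KO and WT under vehicle by 0.13 and -0.18, with Rab26 under 5.03 on every array. Vamp8, a granule fusion protein (0.45), and Tmed6, a cargo protein of the early secretory pathway (0.26), were highest in that comparison, and Rab27b (-0.66) and the calcium pump gene Atp2c2 (-0.63, under the filter) lowest. With metformin in KO, Tmed6 (-0.56) and Vamp8 (-0.30) were lowest and Rab26 (0.10) and Rab27b (0.09) highest.

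Of 10 regulators and partners of Bhlha15, 0 were past 2-fold in a comparison of 2 arrays, at the same shares of all genes, and Gata4 had a difference of metformin responses of 1.06. Xbp1, the unfolded protein response factor upstream of Bhlha15, measured 10.41 on the KO metformin array, 10.37 on the KO vehicle array, 10.18 on the WT metformin array and 10.37 on the WT vehicle array. As deposited, Xbp1 was thus equal between genotypes under vehicle to the second decimal, where the median of all genes was -0.22. Scaling moved that median, so the equality holds for the deposited values only. Tcf3, which encodes the E proteins that pair with such factors, was higher in KO by 0.36 under vehicle and 0.51 under metformin. Tcf12, the other E protein gene listed, differed by -0.53 under vehicle and 0.29 under metformin. Id1, Id2 and Id3, which block E proteins, differed between KO and WT under vehicle by -0.39, -0.29 and 0.22. Gata4, an endoderm factor (-0.999, just short of 2-fold), and Sox2 (-0.66) were the lowest of the list there.

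Some enzymes related to the members differed by more. Of 15 listed, 13 were measured and 6 lay under 5.03 on all arrays. Ctse, the aspartic protease cathepsin E of surface cells, measured 13.16 on the KO metformin array, 12.09 on the KO vehicle array, 13.03 on the WT metformin array and 13.26 on the WT vehicle array. Only the KO vehicle array stood low, at -1.18 from WT vehicle. In that comparison 8.12% of all genes were past 2-fold lower and the median of all genes was -0.22. Lipa measured 8.50 on the KO metformin array, 7.43 on the KO vehicle array, 7.99 on the WT metformin array and 8.42 on the WT vehicle array, again lowest on KO vehicle (-0.99). Ctsd, the lysosomal aspartic protease, stayed within 10.42 to 10.53, and Cym, the gene of the milk-clotting protease chymosin, differed by 0.37 between KO and WT under vehicle.

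**Figure D3:**
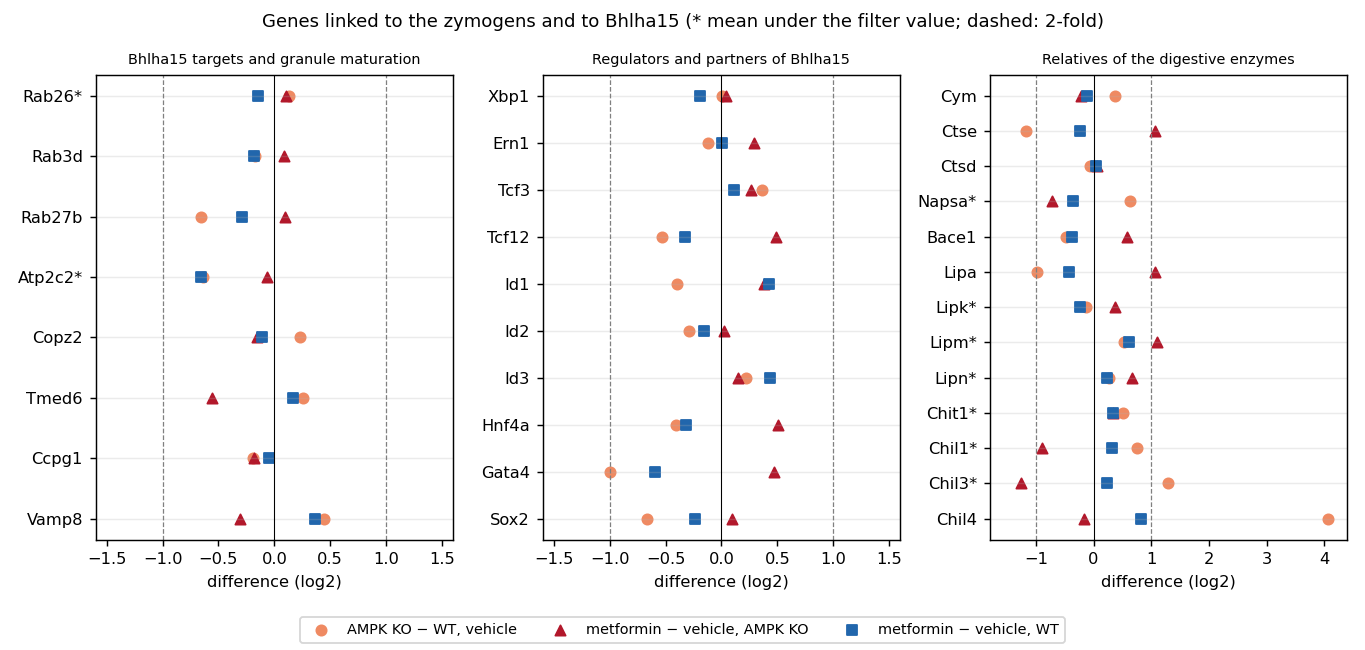
Differences of log2 expression (x axis) for genes linked to the zymogens and to Bhlha15 (rows), with orange circles for AMPK KO minus WT under vehicle, red triangles for metformin minus vehicle in AMPK KO and blue squares for metformin minus vehicle in WT. The left and middle panels lie within the dashed 2-fold lines, and Ctse lies at -1.18 in the right panel, where the Chil4 circle starts from a WT value under the filter value and is not read as a fold.

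Markers of other cells moved with some of these values. Bhlha15 is also known from plasma cells, and the summed linear signal of 10 plasma cell genes was 2033.1 on the KO metformin array, 3382.7 on the KO vehicle array, 1035.9 on the WT metformin array and 904.2 on the WT vehicle array. Both KO arrays were above both WT arrays there, as for Bhlha15, and the part of plasma cells in the Bhlha15 values was not tested. On the KO arrays the list's sum was carried by the heavy chain gene Ighm (10.39 on KO metformin, 11.38 on KO vehicle). On the WT arrays Ighm was lower (8.33 on WT metformin, 7.63 on WT vehicle) and did not carry it. Jchain, the immunoglobulin joining chain gene, measured 6.08 on KO metformin, 7.02 on KO vehicle, 3.19 on WT metformin and 3.94 on WT vehicle, with both WT values under 5.03. The other 4 plasma cell genes past the filter were lower in KO under vehicle, Derl3 by -0.49, Prdm1 by -0.26, Sdc1 by -0.23 and Txndc5 by -0.14, and under metformin they differed by -0.23, -0.20, -0.15 and -0.16. The defining genes Mzb1, Tnfrsf17, Irf4 and Pou2af1 were under 5.03 on every array.

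Markers of the neighbouring gland cells included genes past 2-fold, though the pit cell list did not. Of its 6 genes, 0 were past 2-fold in any comparison of 2 arrays, at the shares of all genes given above. Under vehicle Tff1 (0.23) was highest in KO against WT and Muc5ac (-0.73) lowest. Gkn2 stayed within 13.84 to 13.91 on the 4 arrays. The summed signal of 16 parietal cell genes was 33727.0 on the KO metformin array, 28149.5 on the KO vehicle array, 32612.2 on the WT metformin array and 40119.7 on the WT vehicle array, and 5 of the 16 were past 2-fold lower in KO under vehicle, as were 8.12% of all genes. These were the gastrin receptor gene Cckbr (-1.76), the water channel gene Aqp4 (-1.54) and the ion transport genes Slc9a4 (-1.44), Slc26a9 (-1.27) and Kcnj15 (-1.26). Of 6 mucous neck cell genes, 2 were past 2-fold lower in KO under vehicle, the mucin Muc6 (-1.05) and A4gnt (-1.48), which caps the gland mucin sugars, while Bpifb1 (0.92) and Tff2 (0.89) were highest. Of 11 genes of chief cell reserve and injury response, 0 were past 2-fold there, with Dmbt1 (0.81) highest and Sox9 (-0.90) lowest. With metformin in KO, Dmbt1 (1.34) and Sox9 (1.08) of that list, 2 of 11, were past 2-fold higher, against 2.44% of all genes. Sox9 was lowest on KO vehicle (8.53), an array that both of its differences use. Of the 6 mucous neck cell genes, Muc6 (1.22) and A4gnt (1.19) were past 2-fold higher there too, with Tff2 (-0.19) lowest. The 11 measured squamous genes of the forestomach summed to 3609.8 on the KO metformin array and 995.3 on KO vehicle. On WT metformin and WT vehicle they summed to 1251.8 and 1038.4. Sprr1a was high on every array (9.53 to 10.83). With metformin in KO 9 of the 11 were above 0 and 6 past 2-fold higher, against 2.44% of all genes. These 6 were Krtdap (4.69), Krt4 (3.55), Krt10 (3.25), Cnfn (3.12), Krt13 (1.67) and Sprr1a (1.31). Krtdap, Krt4 and Krt13 lay under 5.03 on KO vehicle, so their values are not read as folds. The part of squamous genes in the values of Pga5 and the other members on the KO metformin array was not tested. Muscle and vessel genes summed to 8665.4 on the KO metformin array, 5569.8 on KO vehicle, 11930.9 on WT metformin and 12059.6 on WT vehicle, and the part of this in the member differences was not tested.

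**Figure D4:**
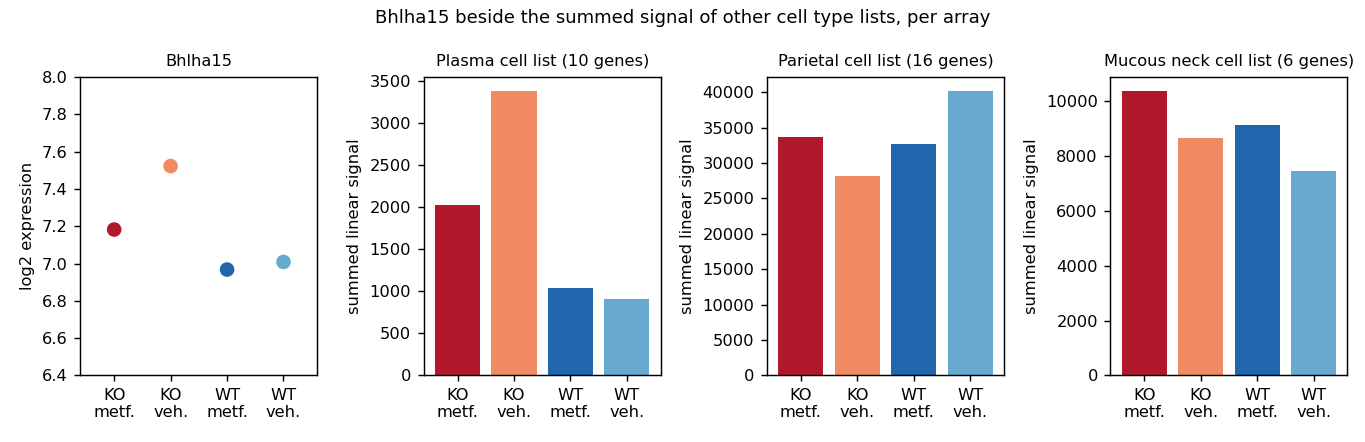
Log2 expression of Bhlha15 (left, y axis) and summed linear signal of the plasma cell, parietal cell and mucous neck cell lists (bars from 0, y axis) on the 4 arrays (x axis). Bhlha15 and the plasma cell sum are both highest on AMPK KO vehicle (7.52 and 3382.7), where the parietal cell sum is lowest (28149.5). On the KO arrays the plasma cell sum is carried by Ighm, while Derl3, Prdm1, Sdc1 and Txndc5 are lower in KO. WT metformin and WT vehicle rank in opposite order for Bhlha15 (6.97 and 7.01) and the plasma cell sum (1035.9 and 904.2).

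Gene length moved with the genotype difference too. Under vehicle, the median difference between KO and WT was 0.03 in the fifth of protein-coding genes with the shortest spans (up to 8395 bases in RefSeq) and -0.35 in the fifth with the longest. Bhlha15 spans 4156 bases, and the 582 genes of 0.8 to 1.25 times that span had a median of -0.03 and a central 95% from -1.12 to 1.22. Bhlha15 was 0.54 above that median. Pgc, Pga5, Cblif and Chia1 lay 0.11, 0.19, -0.01 and 0.17 from the medians of genes of their own span.

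**Figure D5:**
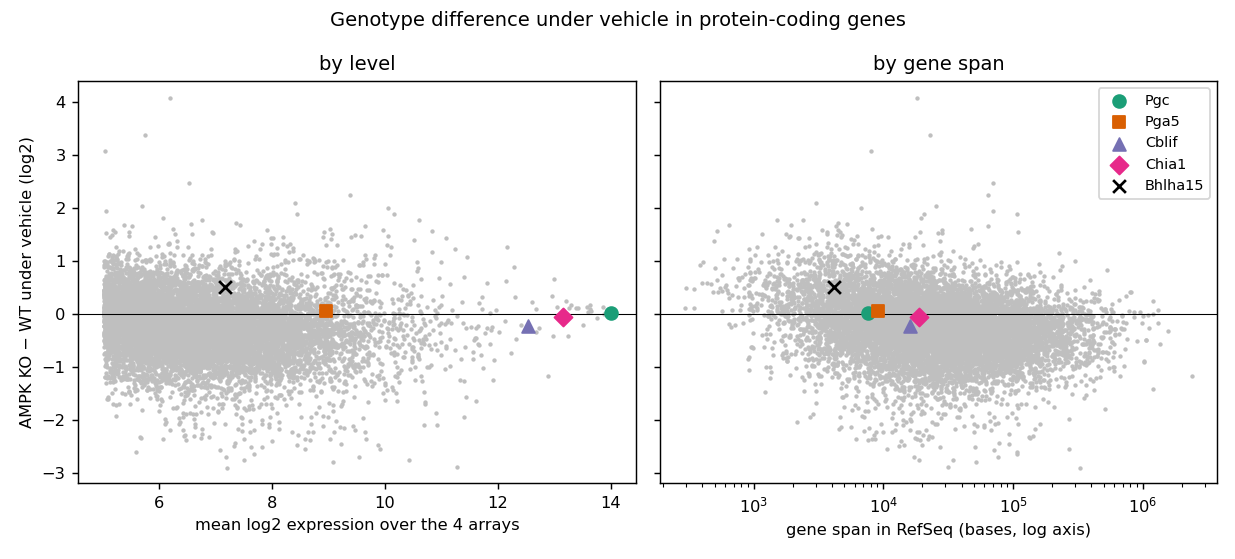
AMPK KO minus WT under vehicle (log2, y axis) for protein-coding genes (grey points) against mean log2 expression (left) and gene span in bases on a log axis (right), with 5 members as symbols. Pgc, Chia1 and Cblif sit at the right end of the level axis near 0, and Bhlha15 at 0.51 on the short side of the span axis.

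Genes with the profile most like each member over the 4 arrays were found by the root mean square distance between log2 values centred on each gene's mean, among 10359 named protein-coding genes. For Bhlha15 these were Ndufv3 (0.01), Mad2l2 (0.02) and Snap47 (0.03), with 197 genes within 0.1. For Pga5 they were Timm10b, Cables2 and Spdef (each at 0.02), with 401 genes within 0.1. For Pgc, Cblif and Chia1 the nearest were Ccm2l, Elmod2 and Rtn4, and 1349, 1445 and 1166 genes lay within 0.1, so with 4 arrays and small ranges these profiles are shared by many genes.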

How the data were processed

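Total RNA from gastric corpus was turned into biotinylated cDNA with Affymetrix WT Plus reagents, per the labels' protocols. The authors deposited log2 values made with RMA and Partek, per the submitters' processing notes. Their versions, settings and the annotation build were not given in the sources used here. Values ran from 0.77 to 14.02. Precision is limited by the number of arrays.

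Of 41345 probe sets, the platform annotation pairs 23521 with 1 gene, 1814 with several and 16010 have no name here. RefSeq (GRCm38.p6) gave current symbols and held 23328 of the 23521. The probe set with the highest mean stood for a gene. Named are all members, up to 2 highest and 2 lowest of each list per comparison, those past 2-fold where a list's count is given and a few preset genes (Rab26, Rab3d, Xbp1, Tcf3, Muc6, Atp4b, Jchain, Chil3, Chil4, Ctse, Lipa). The rule was not carried through for squamous, muscle and vessel genes, given as sums. Squamous genes past 2-fold were named for metformin in KO only. Others (Ctsd, Cym, Id1, Id2, Tcf12 and the tissue and background markers) were chosen after their values were seen. The members and lists were chosen with earlier results of these data known.

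Differences of 2 arrays have no p-value. For additive effects limma 3.58.1 (R 4.3.3) was used. A trial on simulated data had additive effects and independent noise only. It therefore cannot show how the test behaves with an interaction or an array-wide shift. Other steps used Python 3.11.15. Alternatives for scaling were cyclic loess and centring on medians or on the median level of pan-epithelial genes. Others were the mean of probe sets, other filters, a 1.5-fold rule and other variance models. Added after seeing the data were protein-coding genes only and removal of the trend on gene span (lowess, span 0.3).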

Additional observations from a re-analysis of the deposited data

Results flagged for a closer look

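Cblif was picked out because its metformin difference had opposite signs in the 2 genotypes, 0.15 in KO and -0.17 in WT, which differ by 0.32 on the log2 scale. This difference was not tested, since each group had 1 array. Of all genes, 63.0% had a difference of responses at least as large in size. The medians of all genes had the same signs, 0.11 in KO and -0.14 in WT, with a median difference of responses of 0.26. Across settings the difference of responses of Cblif ran from -0.16 to 0.48.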

How the results depend on the processing

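No member passed 2-fold in any comparison under any alternative run, 0 of 5 throughout and 0 of 6 without the expression filter, and 0 passed 1.5-fold as deposited. The limma count of members past the adjusted p was 0 for both effects under every alternative run. Over all genes, the genotype test called 5 as deposited (0.0451%) and 0% both relative to pan-epithelial genes and with the filter at the 75th percentile, and across the other settings the share ran between 0.0135% and 0.361%. Scaling moved the median of all genes in KO against WT under vehicle from -0.22 as deposited to -0.07 after cyclic loess, -0.37 after centring on medians and 0.17 relative to pan-epithelial genes. The signs of Pgc, Cblif and Chia1 in that comparison changed with it, with ranges of -0.13 to 0.41, -0.38 to 0.16 and -0.21 to 0.34, and that of Pga5 too (-0.09 to 0.46). Bhlha15 kept its sign in KO against WT, at 0.36 to 0.91 under vehicle and 0.13 to 0.22 under metformin, and in the metformin response of KO (-0.70 to -0.26), though not in that of WT (-0.12 to 0.09). With the trend on gene span removed its vehicle difference was 0.49. Pga5 kept its sign with metformin in WT (0.10 to 0.29) but not in KO (-0.02 to 0.43). Only the KO value relative to pan-epithelial genes was negative. No paired analysis was possible because the labels give each group 1 array and no replicate numbers, and leaving out an array leaves no residual degree of freedom. Each pairwise value rests on 2 arrays.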
